A study of Homo sapiens with 6 samples.

Results

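NF-kB is a family of dimeric transcription factors built from 5 subunits, and the 10 genes described here are those subunits (NFKB1, NFKB2, REL, RELA and RELB), the inhibitors and feedback genes NFKBIA, NFKBIE and TNFAIP3, and the induced genes TNFAIP2 and ICAM1. They were taken by symbol from the 61155 symbols of the count table, by a rule that names no measured value but was set with earlier results of these data known, and 10 of 10 were among the 16633 genes that passed a filter on low counts. The cells were MDA-MB-231, a human breast cancer cell line of triple-negative, mesenchymal type, and RNA was sequenced in 3 VASP knockdown libraries and 3 control libraries. The titles name shVASP and plko, whereas the other labels name a VASP siRNA and a negative control siRNA given with a lipid reagent, and the labels do not settle which was used. All cells grew in serum-containing medium with insulin and were harvested 48 hours after transfection, and the labels name no cytokine or other NF-kB stimulus. VASP is an actin regulator that promotes filament elongation, and the comparison gives the messages of the NF-kB genes when VASP message is lowered. VASP protein was not measured here. The only groups are this knockdown and its control, so effects of lower VASP and other effects of the reagent cannot be told apart.

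In resting cells, IkB proteins hold NF-kB dimers in the cytoplasm. In the canonical branch, receptors for TNF, interleukin-1 and microbial products activate the IKK kinases, IkB is degraded, and dimers such as RELA with the NFKB1 product enter the nucleus. In the noncanonical branch, the NFKB2 precursor is processed and its product acts with RELB. NF-kB induces the genes of its own inhibitors, so that NFKBIA and TNFAIP3 messages commonly serve as readouts of the pathway, and ICAM1 and TNFAIP2 are long-known induced genes.

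The kappa-B consensus, the 10-base sequence that NF-kB dimers bind, shows which members carry the letters of a feedback loop close to their start. It was searched on both strands of RefSeq promoter windows, from 250 bases before to 50 bases after a start site (GRCh38.p14). Of the 10 members, 8 had a window, RELB and NFKBIE being the others, and 4 of those 8 windows held a match. The sequences are shown 5′ to 3′ on the gene's strand, and capitals mark the matches. The pieces lie at chr4:102501300-102501329 (plus strand) for NFKB1, chr2:60881518-60881546 (plus strand) for REL, chr14:35404811-35404840 (minus strand) for NFKBIA and chr6:137867188-137867217 (plus strand) for TNFAIP3.
NFKB1: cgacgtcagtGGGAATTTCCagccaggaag
REL: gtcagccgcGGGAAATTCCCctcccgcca
NFKBIA: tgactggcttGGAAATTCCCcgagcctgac
TNFAIP3: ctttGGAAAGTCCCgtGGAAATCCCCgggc
The NFKB1 match starts 49 bases before the start site and the NFKBIA match 81 bases before it. REL holds a pair of overlapping matches, 1 on each strand, and TNFAIP3 holds 2 matches at 67 and 55 bases before its start. The windows of NFKB2, TNFAIP2 and ICAM1 held no full match, but that of ICAM1 holds tggaaattcc, which differs from the consensus only at its first base. That of RELA also held none, but it is built on a RefSeq start 767 bases upstream of the RELA start in the count table and does not cover the start in the table. Of all 35116 RefSeq windows of this length, 2075 held a match, or 5.91%. With any base allowed at the sixth position the share was 11.27% of all windows, and the same 4 member windows matched. A match describes letters and is not evidence of binding, and the lack of a full match is not evidence against it.

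The libraries held 28856610 to 30055503 counts each, so a floor of 3 counts lies at 0.0978 to 0.104 CPM, the TMM-scaled count per 1e6 counts of tested genes. VASP had 396, 379 and 360 counts in the knockdown libraries, against 4544, 5036 and 4708 in the control libraries (log2 fold change -3.69, SE 0.06, edgeR adjusted p = 8.32e-24). Marker levels were mixed. The mesenchymal genes VIM and MSN averaged 1698 and 1955 CPM in knockdown and 1663 and 1988 CPM in control. KRT8 and KRT18, epithelial keratin genes listed with them for the line, averaged 528 and 229 CPM in knockdown and 543 and 223 CPM in control. EGFR alone of the 9 genes listed for the line had an adjusted p under 0.05 (log2 fold change 0.24, edgeR adjusted p = 0.00123). It rose, as did 18.9% of all genes tested. The epithelial cadherin CDH1, the progesterone receptor PGR and the luminal marker TFF1 averaged under the floor in both groups. The other luminal markers were above it: ERBB2 averaged 97.8 CPM in knockdown and 107 CPM in control, and FOXA1 5.97 CPM in knockdown and 6.46 CPM in control. KRT19 averaged 3.35 CPM in knockdown and 3.43 CPM in control, GATA3 0.73 CPM in knockdown and 0.68 CPM in control, and ESR1 0.58 CPM in knockdown and 0.63 CPM in control. The 8 luminal markers summed to 105 to 112 CPM in knockdown and 115 to 121 CPM in control. SPARC, also listed for the line, was near the floor. Summed over 12 leukocyte markers, levels ran from 1.97 to 3.55 CPM in knockdown and from 3.01 to 3.79 CPM in control, with MS4A1 and FCGR3A at 0, and 8 endothelial markers summed to 6.16 to 6.39 CPM in knockdown and 6.98 to 7.37 CPM in control. Summed over 8 fibroblast markers they ran from 6.84 to 7.34 CPM in knockdown and from 6.40 to 7.93 CPM in control. Of 11 mitochondrial transcripts 5 fell, where 18.3% of all genes tested fell. The sum of the 11 ran from 110670 to 140290 CPM in knockdown and from 129280 to 146540 CPM in control. The part of these marker differences in the changes of the NF-kB genes was not tested. The labels do not state separate cultures, and the p-values therefore cover the spread among 6 libraries that may be technical repeats.

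Among the members, 6 fell and 0 rose after VASP knockdown. TNFAIP2, ICAM1 and TNFAIP3 were the most reduced, followed by RELB, NFKBIA and NFKB2, while NFKB1, REL, RELA and NFKBIE did not pass the test (edgeR quasi-likelihood test, adjusted p under 0.05 over 16633 genes). At an unadjusted p under 0.05, 1 member rose (REL), and DESeq2 put 0 members up. Over all genes tested, 18.3% fell and 18.9% rose. The median log2 fold change of the 10 members was -0.21, and that of all genes tested was -0.00765. The groups did not overlap in 7 of 10 members, against 47.6% of all genes tested. The changes were small: the lowest ratio of knockdown to control was 0.702, for TNFAIP2.

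**Figure D1:**
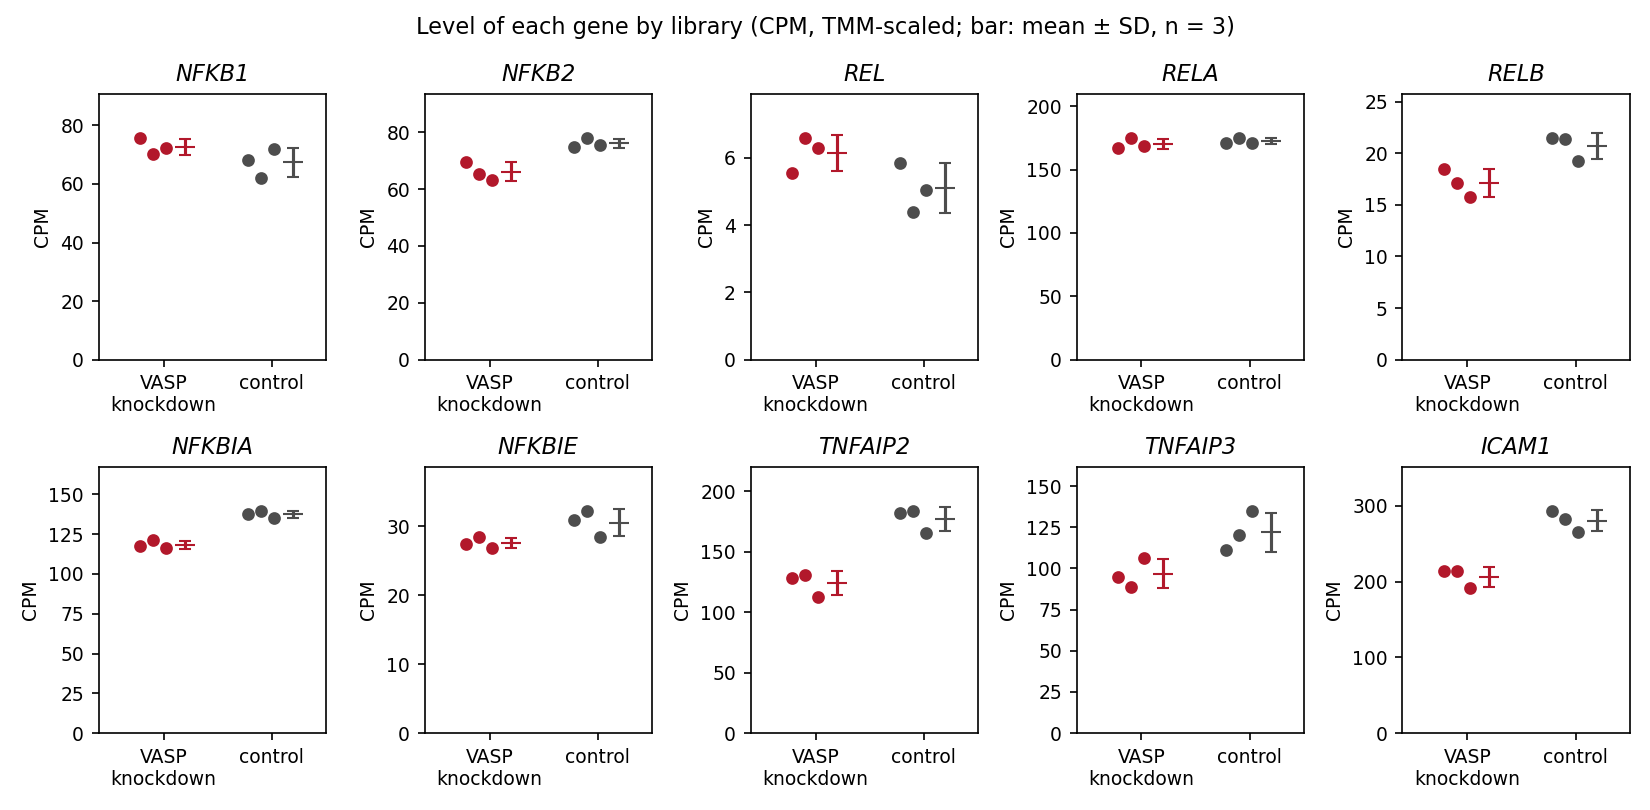
TMM-scaled CPM of each of the 10 genes (y axis, from 0) in the 3 VASP knockdown libraries (red, left) and the 3 control libraries (grey, right), with mean ± SD (n = 3). TNFAIP2, ICAM1, TNFAIP3, NFKBIA, NFKB2 and RELB sit lower in all 3 knockdown libraries, while the groups of NFKB1, REL and RELA overlap.

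Fold change followed GC content across the whole table, and this bears on several members. Split into 10 bins of equal size by GC content, genes of the bin up to 38.9% GC had a median log2 fold change of 0.176, and genes of the bin from 61.7% GC had one of -0.235. Every gene was therefore also fitted with GC content and length corrected for, and that value is given for each member. After it, 4 members fell (TNFAIP2, ICAM1, TNFAIP3 and NFKBIA) and 1 rose (RELA), with a median of -0.036, against a median of 0.0276 over the 16373 genes with a GC value, of which 12.1% fell and 17.7% rose. What lies behind the relation to GC content was not tested.

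**Figure D2:**
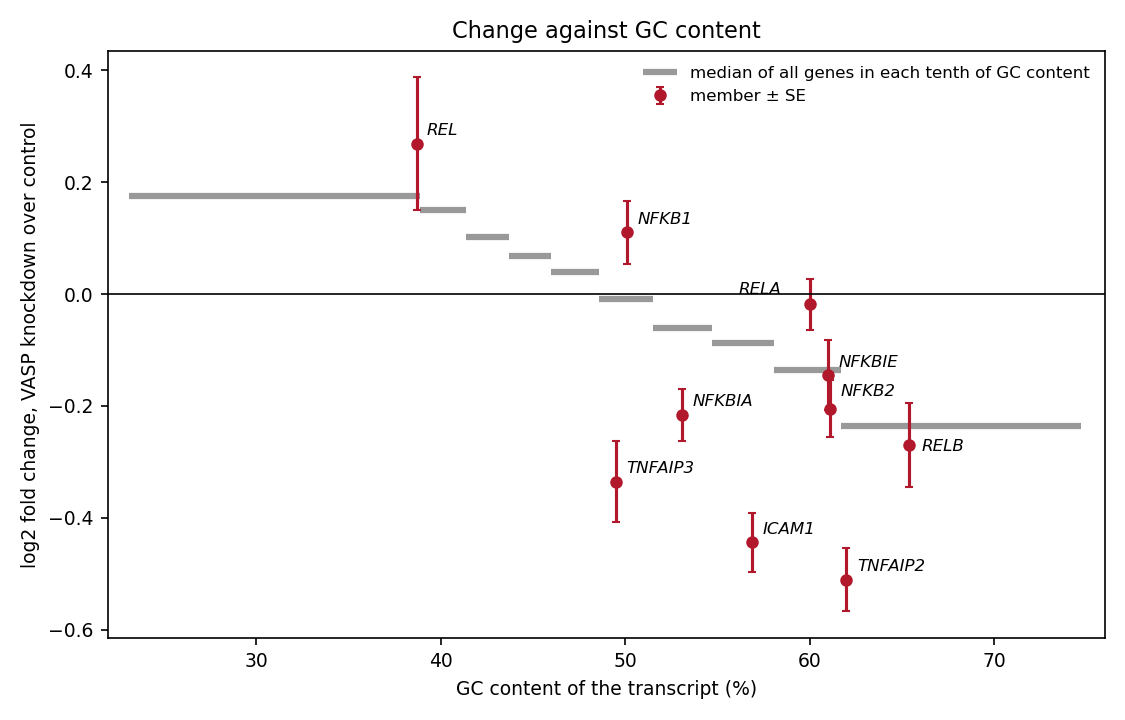
Log2 fold change of knockdown over control (y axis) against transcript GC content in percent (x axis), with the 10 members as red points (± SE) and the median of all genes in each GC bin as grey lines. NFKB2, RELB and NFKBIE lie near the medians of their bins (-0.135, -0.235 and -0.135), whereas TNFAIP2, ICAM1 and TNFAIP3 lie below theirs (-0.235, -0.088 and -0.009).

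RELA, which carries the main transactivation domain of the canonical dimer, stood at 167, 175 and 169 CPM in the knockdown libraries, against 171, 175 and 171 CPM in the control libraries. These 6 values lay within a narrow range and the groups overlapped. The log2 fold change was -0.02 (SE 0.05, 95% interval -0.11 to 0.08, edgeR adjusted p = 0.785). After the GC correction it was 0.12 with an adjusted p of 0.0447, so the direction turned and the threshold was passed. RELA lies on GRCh38 chromosome 11, 65653597 to 65663090, minus strand. Its exons overlap the divergent transcript RELA-DT on the opposite strand, which averaged 2.698 ± 0.15 CPM in knockdown and 2.77 ± 0.30 CPM in control (SD, n = 3 each).

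NFKB1 (chromosome 4, 102501331 to 102617302, plus strand) encodes the precursor of the usual DNA-binding partner of RELA. It stood at 75.7, 70.4 and 72.1 CPM in knockdown, against 68.1, 62.1 and 72.0 CPM in control. The highest control library lay within the range of the knockdown libraries. The log2 fold change was 0.11 (SE 0.06, 95% interval -0.0049 to 0.22, edgeR adjusted p = 0.126), and 0.14 after the GC correction (adjusted p = 0.0506). Without control library 3, the highest of its group, NFKB1 passed the test at 0.16 (edgeR adjusted p = 0.0283).

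REL, the c-Rel subunit best known from lymphocytes, was the least abundant member, with 127 to 195 counts per library. It stood at 5.54, 6.60 and 6.30 CPM in knockdown, against 5.86, 4.38 and 5.05 CPM in control, and the groups overlapped through control library 1. REL had a log2 fold change of 0.27 (SE 0.12, edgeR adjusted p = 0.0768), and 0.16 after the GC correction (adjusted p = 0.313). Without control library 1, REL passed the test at 0.38 (edgeR adjusted p = 0.024). At 38.7% GC, REL is the only member below 49.5%, and genes of its GC bin had a median of 0.176.

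NFKB2 (chromosome 10, 102394110 to 102402524, plus strand), the precursor of the noncanonical DNA-binding subunit, fell modestly. It stood at 69.7, 65.3 and 63.1 CPM in knockdown, against 74.9, 78.0 and 75.4 CPM in control. All 3 knockdown libraries were below all 3 control libraries. NFKB2 had a log2 fold change of -0.20 (SE 0.05, edgeR adjusted p = 0.00299), and -0.05 after the GC correction, where it did not pass (adjusted p = 0.443).

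RELB (chromosome 19, 45001449 to 45038198, plus strand), the noncanonical partner of the NFKB2 product and itself an NF-kB target, moved in the same way. It stood at 18.5, 17.2 and 15.8 CPM in knockdown, against 21.5, 21.3 and 19.2 CPM in control. The groups did not overlap. The log2 fold change was -0.27 (SE 0.07, edgeR adjusted p = 0.00617), and -0.02 after the GC correction (adjusted p = 0.838). With 65.4% GC it is the most GC-rich member.

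The balance between the subunit messages of the branches was measured inside each library, as the mean log2 CPM of NFKB2 and RELB minus that of NFKB1, RELA and REL. It describes messages only, and the activity of either branch was not measured. The balance was -0.200, -0.372 and -0.428 in the knockdown libraries, against -0.027, 0.171 and -0.058 in the control libraries. It was lower in every knockdown library than in every control library. The difference was -0.362 (exact permutation test over libraries, two-sided, p = 0.1, the smallest p that 3 against 3 allows), and -0.178 after the GC correction. In the corrected fit the log2 fold changes were -0.05 for NFKB2 and -0.02 for RELB. They were 0.14 for NFKB1, 0.12 for RELA and 0.16 for REL. Each gene has equal weight within its mean, so REL, with 127 to 195 counts per library, weighs as much as RELA. Log2 CPM of NFKB2 minus NFKB1 alone was -0.120, -0.109 and -0.193 in knockdown, against 0.138, 0.329 and 0.066 in control (exact permutation p = 0.1). After the GC correction the difference in this measure was -0.191, against -0.318 as counted. CPM are not scaled by length, so the sign within a library is no comparison of levels; in RPKM, NFKB2 was above NFKB1 in both groups.

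Per length, in RPKM (CPM divided by kilobases of merged exons), RELA made up 49.7% ± 1.54 of the summed level of the 5 subunits in knockdown and 48.2% ± 0.49 in control (SD, n = 3 each). NFKB2 made up 22.3% ± 0.75 in knockdown and 24.6% ± 0.48 in control, and NFKB1 18.2% ± 0.61 in knockdown and 16.2% ± 1.24 in control. RELB made up 9.05% ± 0.54 in knockdown and 10.5% ± 0.62 in control. REL made up under 1% of the sum in every library. RELA message was thus the largest share of the 5 subunits in both groups.

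NFKBIA (chromosome 14, 35401511 to 35404749, minus strand) encodes IkB-alpha, the inhibitor that NF-kB resynthesizes first after activation. It stood at 117, 121 and 116 CPM in knockdown, against 138, 139 and 135 CPM in control. Each group was tight and the groups did not overlap, with the highest knockdown library well below the lowest control library. The log2 fold change was -0.22 (SE 0.05, edgeR adjusted p = 0.000722), and -0.14 after the GC correction (adjusted p = 0.0111).

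NFKBIE (chromosome 6, 44258166 to 44265788, minus strand) encodes IkB-epsilon, a slower feedback inhibitor. It stood at 27.4, 28.4 and 26.9 CPM in knockdown, against 30.9, 32.1 and 28.4 CPM in control. The groups met at 28.4 CPM and were separate by less than the rounding of these values. NFKBIE had a log2 fold change of -0.15 (SE 0.06, edgeR adjusted p = 0.0712), and it turned to 0.02 after the GC correction (adjusted p = 0.807). Without control library 3, the lowest of its group, NFKBIE passed the test at -0.19 (edgeR adjusted p = 0.0208).

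TNFAIP3 (chromosome 6, 137867214 to 137883312, plus strand) encodes the ubiquitin-editing enzyme that switches off signalling upstream of IKK. It stood at 94.7, 89.0 and 106 CPM in knockdown, against 111, 120 and 135 CPM in control. The groups did not overlap, although the spread within each was wider than for NFKBIA. TNFAIP3 fell 1.26-fold (log2 fold change -0.34, SE 0.07, edgeR adjusted p = 0.0024), and the GC correction left it at -0.31 (adjusted p = 0.0125). WAKMAR2, a noncoding gene on the opposite strand whose exons overlap TNFAIP3, also fell, with 4.02 ± 0.74 CPM in knockdown and 6.10 ± 0.94 CPM in control (SD, n = 3 each, log2 fold change -0.60, edgeR adjusted p = 0.00141). Counting did not use strand, so reads from the 2 genes cannot be told apart where their exons meet.

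TNFAIP2 (chromosome 14, 103123442 to 103137439, plus strand), a TNF-induced gene whose product promotes membrane nanotube formation and cell motility, fell the most of the 10. It stood at 129, 131 and 113 CPM in knockdown, against 182, 183 and 165 CPM in control. The gap between the groups exceeded the range within either. TNFAIP2 fell 1.42-fold (log2 fold change -0.51, SE 0.06, edgeR adjusted p = 4.81e-07), and the GC correction left -0.34 (adjusted p = 2.8e-05).

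ICAM1 (chromosome 19, 10271093 to 10286615, plus strand), the adhesion molecule that leukocyte integrins bind, was the most abundant member. It stood at 214, 213 and 191 CPM in knockdown, against 293, 283 and 265 CPM in control. All knockdown libraries were below all control libraries. ICAM1 fell 1.36-fold (log2 fold change -0.44, SE 0.05, edgeR adjusted p = 8.3e-07), with -0.34 after the GC correction (adjusted p = 2.5e-05). The opposite-strand genes that overlap its exons had at most 6 counts in any library. In bulk RNA, fewer cells with a transcript and less transcript per cell cannot be told apart.

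**Figure D3:**
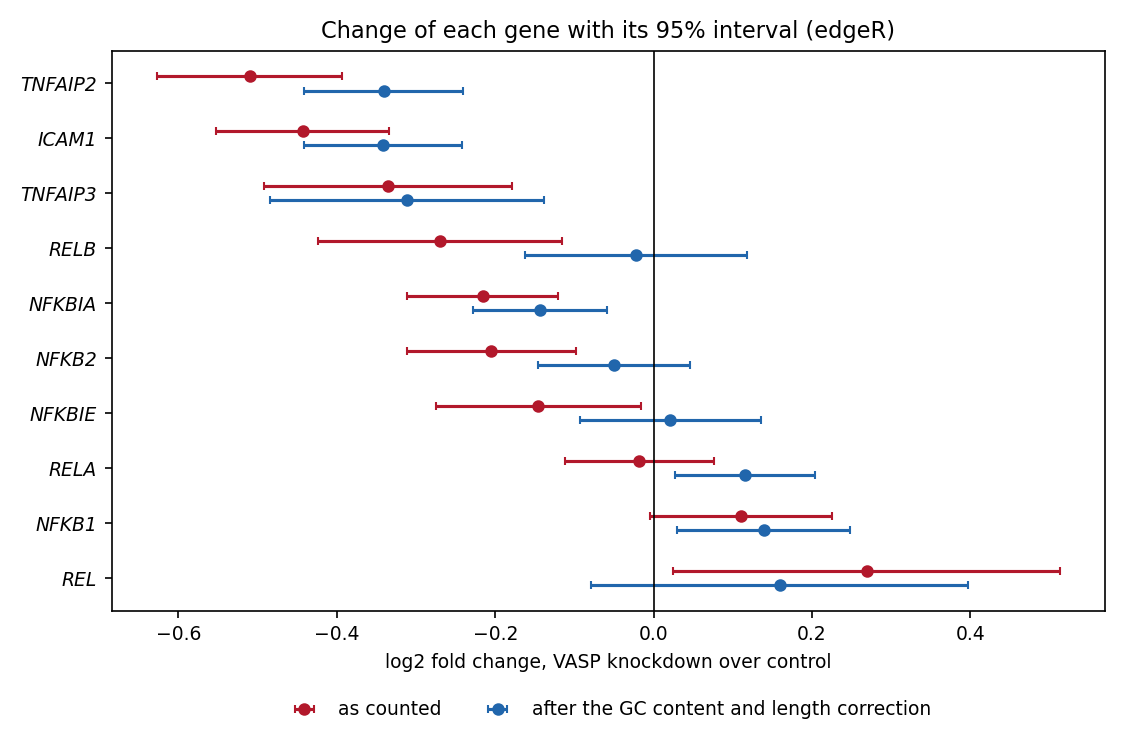
Log2 fold change of VASP knockdown over control (x axis) with 95% intervals for each member, as counted (red) and after the GC content and length correction (blue). The intervals of TNFAIP2, ICAM1, TNFAIP3 and NFKBIA lie below 0 under both, while those of NFKB2 and RELB reach across 0 after the correction.

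In RPKM, the order of levels in knockdown was ICAM1 (59.8 ± 3.76), NFKBIA (49.8 ± 1.10), RELA (31.2 ± 0.76), TNFAIP2 (24.7 ± 1.96), TNFAIP3 (19.2 ± 1.76), NFKB2 (14.0 ± 0.71), NFKB1 (11.4 ± 0.43), NFKBIE (10.7 ± 0.29), RELB (5.68 ± 0.45) and REL (0.467 ± 0.04) (SD, n = 3). No neighbours in this order overlapped between libraries. In control the order was ICAM1 (81.3 ± 3.99), NFKBIA (57.9 ± 0.90), TNFAIP2 (35.1 ± 1.99), RELA (31.6 ± 0.41), TNFAIP3 (24.3 ± 2.34), NFKB2 (16.1 ± 0.36), NFKBIE (11.8 ± 0.74), NFKB1 (10.6 ± 0.78), RELB (6.86 ± 0.42) and REL (0.387 ± 0.06) (SD, n = 3), and only NFKBIE and NFKB1 overlapped. TNFAIP2 thus stood below RELA in knockdown and above it in control, and NFKBIE below NFKB1 in knockdown and level with it in control.

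**Figure D4:**
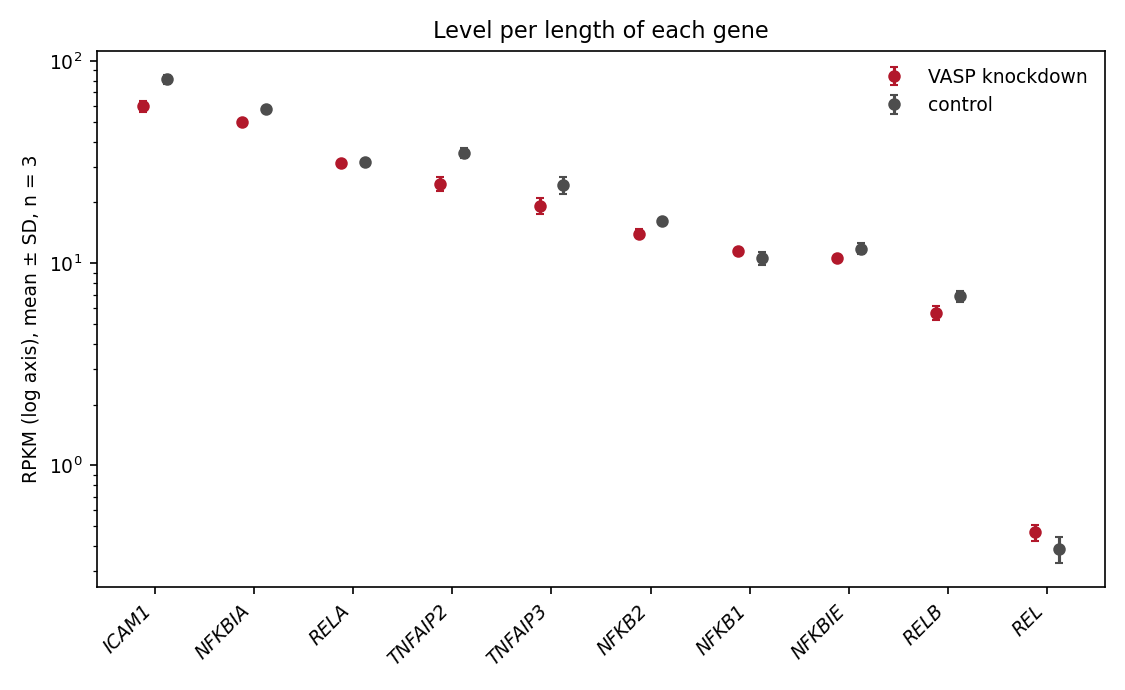
RPKM (log axis, mean ± SD, n = 3) of each member in knockdown (red, left of each pair) and control (grey), ordered by the knockdown level. ICAM1 is highest and REL lowest in both groups, with RELA nearly equal between them at 31.2 RPKM in knockdown and 31.6 RPKM in control.

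A 6-base word in 3′ UTRs is given because earlier work on these data found it among genes that fell, so its share is a description. Of 599 tested protein-coding genes with the word in their 3′ UTR (GENCODE release 29), 42.2% fell and 11.2% rose, against 19.2% and 24.1% of 11983 genes without it. These shares use the calls as counted, without the GC correction. The part of GC content and UTR length in them was not tested. Among the members, REL and TNFAIP2 hold it, in capitals in the sites below, at position 1627 of the 9075-base UTR of REL and 1503 of the 2079-base UTR of TNFAIP2.
REL: ttacctgagcagGTCGTCcttgaatatata
TNFAIP2: cagagaacccagGTCGTCtttctattttca
REL did not pass the test and TNFAIP2 fell, and the part of the word in the decrease of TNFAIP2 was not tested. The other 8 members do not hold it, ICAM1, TNFAIP3 and NFKBIA among them. Of the further lists, 8 tested genes hold it, of which 4 fell (TAB1, IRAK3, TNFSF12 and TNFRSF9), 1 rose (TAB3) and 3 did not pass (TRAF1, TRAF3 and TLR4), named for the word whatever their change.

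The rest of the pathway was described by 6 lists of 88 genes, of which 77 were tested: 22 fell and 18 rose, with a median log2 fold change of -0.07. Over all genes tested, 18.3% fell and 18.9% rose, and these shares are the background for the count of each list below. After the GC correction 14 fell and 17 rose, where 12.1% of all genes fell and 17.7% rose. In that fit 0 further IkB-type genes rose and 2 fell, 5 kinases rose and 2 fell, and 7 adaptors rose and 1 fell. Of the brakes 3 rose and 2 fell, of the ligands 0 rose and 3 fell, and of the receptors 2 rose and 4 fell.

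Of 3 tested further IkB-type genes, 2 fell and 0 rose with edgeR, where DESeq2 and an unadjusted p under 0.05 also put 0 up. BCL3, a nuclear IkB relative that works with the NFKB1 and NFKB2 products, averaged 32.5 ± 1.03 CPM in knockdown and 44.6 ± 4.63 CPM in control (SD, n = 3 each, log2 fold change -0.46, edgeR adjusted p = 1.25e-05), with -0.16 after the GC correction. NFKBIZ, an inducible nuclear IkB, averaged 96.5 ± 4.46 CPM in knockdown and 120 ± 5.55 CPM in control (log2 fold change -0.32, edgeR adjusted p = 3.13e-05). NFKBID did not pass, and NFKBIB and NFKBIL1, annotated on 2 and 7 sequences of the build with its alternate sequences, had no library above the floor of 3 counts. Fragments that align to several places were not counted at the counter's defaults, so those counts say little of the genes' level.

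Of 16 kinases and their binding subunits, 6 rose and 4 fell. CHUK, which encodes IKK-alpha, rose 1.29-fold to 37.7 ± 0.82 CPM in knockdown, against 29.3 ± 1.80 CPM in control (SD, n = 3 each, edgeR adjusted p = 4.81e-05). MAP3K7, the TAK1 kinase upstream of IKK, rose 1.23-fold (edgeR adjusted p = 4.2e-05), while TAB1, its activating subunit, had 15.9 ± 1.43 CPM in knockdown and 30.1 ± 0.41 CPM in control, 1.89-fold lower (edgeR adjusted p = 6.27e-10). The log2 fold changes of CHUK, MAP3K7 and TAB1 were 0.36, 0.30 and -0.92 as counted. With the GC correction they were smaller, at 0.25, 0.18 and -0.77, and each still passed. IRAK1, a kinase of the interleukin-1 receptor pathway, fell 1.25-fold (edgeR adjusted p = 5.92e-05) but not after the GC correction (adjusted p = 0.109). Kinase genes thus moved in both directions. TAB1 and MAP3K7 moved opposite ways, but the further subunit genes TAB2 and TAB3, named after their values were seen, rose as MAP3K7 did. Their log2 fold changes were 0.23 (edgeR adjusted p = 0.00132) and 0.20 (edgeR adjusted p = 0.0112). After the GC correction these were 0.12 and 0.10 and did not pass (adjusted p = 0.073 and 0.188).

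Of 19 tested adaptors and ubiquitin ligases, 5 rose and 2 fell. BIRC3 and BIRC2, the cIAP ligases that hold the noncanonical branch in check and serve TNF receptor signalling, both rose. BIRC3, also an NF-kB target, had 36.3 ± 1.36 CPM in knockdown and 25.9 ± 2.69 CPM in control (SD, n = 3 each, 1.40-fold, edgeR adjusted p = 6.8e-06), and BIRC2 had 97.0 ± 2.63 CPM in knockdown and 77.1 ± 2.78 CPM in control (1.26-fold, edgeR adjusted p = 1.39e-05). MALT1, a paracaspase of the CARD complexes, rose 1.23-fold (edgeR adjusted p = 0.000555). The log2 fold changes of BIRC3, BIRC2 and MALT1 were 0.48, 0.33 and 0.30 as counted. With the GC correction they were smaller, at 0.34, 0.21 and 0.20, and each still passed. FBXW11, an F-box protein that marks phosphorylated IkB for degradation, rose 1.12-fold (edgeR adjusted p = 0.0116), a call lost after the GC correction (adjusted p = 0.0718), without control library 2 (0.0739) and without knockdown library 1 (0.0649).

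Of 17 tested further brakes, 4 fell and 3 rose. ZC3H12A, an RNase that degrades inflammatory messages, had 39.6 ± 0.88 CPM in knockdown and 53.9 ± 1.25 CPM in control (SD, n = 3 each, 1.36-fold lower, edgeR adjusted p = 8.65e-07). IRAK3, a pseudokinase that damps interleukin-1 and Toll-like receptor signalling, fell 1.37-fold (edgeR adjusted p = 5.57e-05). TAX1BP1, an adaptor, and ITCH, a ligase, which work with the TNFAIP3 product, rose 1.24-fold (edgeR adjusted p = 0.000126) and 1.17-fold (edgeR adjusted p = 0.000474). TNIP1, another partner of the TNFAIP3 product, named after its values were seen, fell (log2 fold change -0.19, edgeR adjusted p = 0.0032), though not after the GC correction (adjusted p = 0.153). TNIP2 (-0.03) and RNF11 (0.04) did not pass, so the partners did not share a direction as counted. After the GC correction TNIP2 rose (0.15, adjusted p = 0.0408), as did TAX1BP1 (0.21, adjusted p = 0.0039) and ITCH (0.16, adjusted p = 0.00488). RNF11 did not pass there (-0.03, adjusted p = 0.656), and none of these partners fell past the threshold.

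Of 13 ligand genes 6 were tested, and 4 fell and 0 rose with edgeR, 0 also at an unadjusted p under 0.05 and with DESeq2. IL1B, the gene of interleukin-1 beta, had 8.66 ± 0.51 CPM in knockdown and 18.9 ± 3.87 CPM in control (SD, n = 3 each, log2 fold change -1.12, edgeR adjusted p = 4.78e-05). IL18 fell 1.21-fold (edgeR adjusted p = 0.00483), and IL1A, the interleukin-1 alpha gene, averaged 3.68 ± 0.21 CPM in knockdown and 5.44 ± 1.45 CPM in control (log2 fold change -0.56, edgeR adjusted p = 0.00695). Without control library 1, IL1A had a log2 fold change of -0.32 and did not pass (edgeR adjusted p = 0.0674). TNFSF12, the gene of TWEAK, a ligand that engages the noncanonical branch, fell 1.17-fold (edgeR adjusted p = 0.0315). It did not pass after the GC correction (0.943), with DESeq2 (0.0718), with no filter on low counts (0.063), or without control library 1 (0.0607), control library 2 (0.0615), control library 3 (0.0684) or knockdown library 1 (0.21), all as adjusted p. TNF, LTA and LTB are annotated on 8, 7 and 8 sequences, and no library was above the floor of 3 counts, which says little of their level.

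Of 16 receptors, 6 fell and 4 rose. TNFRSF21, death receptor DR6, had 247 ± 11.6 CPM in knockdown and 443 ± 41.9 CPM in control (SD, n = 3 each, 1.79-fold lower, edgeR adjusted p = 7.46e-10). TNFRSF1A, the widely expressed TNF receptor, averaged 260 ± 11.9 CPM in knockdown and 323 ± 28.99 CPM in control (1.24-fold lower, edgeR adjusted p = 0.000208). TNFRSF1B, the other TNF receptor, was at a low level and rose 2.35-fold, with 2.64 ± 0.26 CPM in knockdown and 1.12 ± 0.21 CPM in control (edgeR adjusted p = 1.28e-05). LTBR, the lymphotoxin beta receptor, fell 1.18-fold (edgeR adjusted p = 0.000397) but not after the GC correction (adjusted p = 0.252); its exons overlap SCNN1A on the opposite strand.

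Of 24 tested further textbook targets, 14 fell and 3 rose, where 18.3% of all genes tested fell and 18.9% rose. Their median log2 fold change was -0.216. After the GC correction 14 fell and 2 rose, where 12.1% of all genes fell and 17.7% rose. LIF, a cytokine of the interleukin-6 family, had 74.3 ± 1.32 CPM in knockdown and 105 ± 3.59 CPM in control (SD, n = 3 each, 1.41-fold lower, edgeR adjusted p = 4.76e-08). CXCL8, the neutrophil chemokine interleukin-8, had 164 ± 6.37 CPM in knockdown and 229 ± 10.6 CPM in control (1.40-fold lower, edgeR adjusted p = 8.77e-08). CXCL1, a related chemokine with near-identical paralogs and therefore an uncertain count, fell 1.31-fold (edgeR adjusted p = 1.13e-06). CD83, a surface glycoprotein of activated immune cells, rose 1.62-fold, with 14.8 ± 0.51 CPM in knockdown and 9.14 ± 0.15 CPM in control (edgeR adjusted p = 4.37e-07). Chosen after their values were seen, PTGS2, the inducible cyclooxygenase, had 75.8 ± 5.79 CPM in knockdown and 165 ± 20.8 CPM in control (log2 fold change -1.12, edgeR adjusted p = 3.54e-06), and IL6 had 45.3 ± 2.84 CPM in knockdown and 54.8 ± 2.01 CPM in control (log2 fold change -0.27, edgeR adjusted p = 0.000555). IL11 and TNFAIP8, chosen in the same way, rose, with log2 fold changes of 0.24 (edgeR adjusted p = 0.00672) and 0.26 (edgeR adjusted p = 0.00432). With the GC correction IL11 still rose (0.34, adjusted p = 0.000552) and TNFAIP8 did not pass (0.15, adjusted p = 0.0817). Exons of NFKBIZ, ITCH and TNFSF12 overlap a further gene on the same strand, those of BCL3, ZC3H12A, TNFRSF1B and IRAK3 a microRNA gene on the same strand, and those of CHUK, MALT1, IRAK3, TAX1BP1, TNFSF12, LIF and IL6 a gene on the opposite strand, so their counts can be short of shared fragments or hold those of the neighbour.

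**Figure D5:**
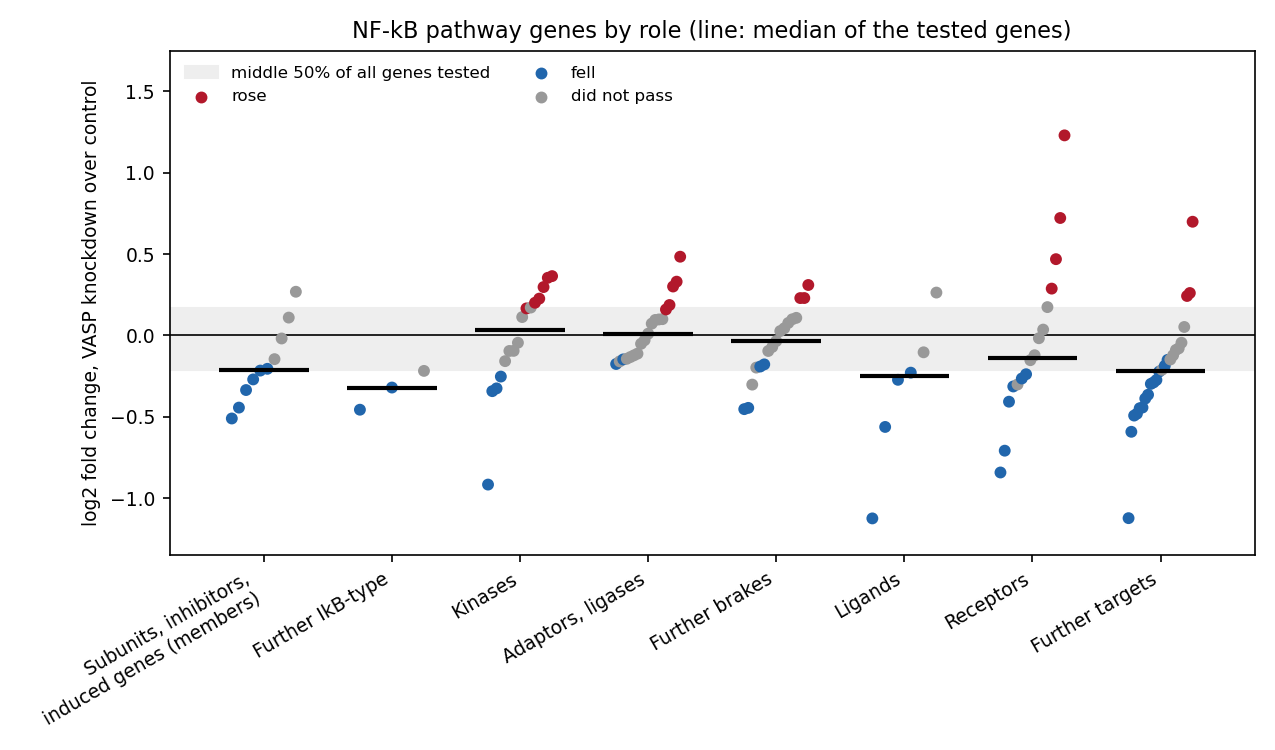
Log2 fold change of VASP knockdown over control (y axis) for each tested gene of the members and of the 7 further lists, coloured by whether it rose, fell or did not pass, with the median of each list as a black line. The grey band holds the middle of all genes tested, from -0.212 to 0.168; the lowest points are IL1B and PTGS2 at -1.12, and the highest is TNFRSF1B at 1.23.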

How the data were processed

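For 6 libraries, the authors deposited 1 table of raw fragment counts by gene symbol. Per the file headers, featureCounts 1.6.4 counted read pairs over GENCODE release 32 exons on GRCh38, with no option shown for strand or multi-mapping reads. Trim Galore 0.6.4, STAR 2.7.1a and hg38 are named in the submitters' processing notes, without settings. Control columns extend the title of 1 control sample, so they are known by group only, and their numbers are names. Chi-square over degrees of freedom was 22.3 to 29.2 for library pairs between groups and 5.75 to 9.88 within a group, above sampling noise. The biological coefficient of variation in edgeR was 4.81%. These values do not tell separate cultures from technical repeats, and each library was counted as 1 replicate.

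From these counts, genes passing filterByExpr were TMM-scaled, and edgeR 4.0.16 in R 4.3.3 gave quasi-likelihood tests, both directions, Benjamini-Hochberg adjusted over 16633 genes (threshold 0.05). CPM use the summed counts of tested genes. RPKM divide by the merged exon length in the table. The GC correction adds a per-library offset from natural splines (5 degrees of freedom) in GC content, from GENCODE release 29, and log length. Alternatives were RLE factors, DESeq2 1.42.0, other filters and leaving out each library. Code was tested on simulated data. Floors cover counting error only.

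Members and gene lists were chosen with earlier results of these data known. The genes named are VASP, the members and, per list, up to 4 past the threshold with the smallest p; others are marked in the text.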

Additional observations from a re-analysis of the deposited data

How the results depend on the processing

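Across RLE factors, DESeq2, both other filters, the GC correction and leaving out each library, TNFAIP2, ICAM1, TNFAIP3 and NFKBIA fell with an adjusted p under 0.05 each time. Calls ran from 4482 to 6402 genes over the leave-one-out fits (6187 with all libraries), with 2251 to 3243 up and 2231 to 3159 down; members down ran from 6 to 7, members up from 0 to 1, pathway genes from 15 to 22 down and 13 to 19 up, and further targets from 12 to 15 down and 3 up. The balance of NFKB2 and RELB over the other subunits ran from -0.429 to -0.291. With the GC correction, 1973 genes fell (3039 without it), 1 member rose and 14 pathway genes fell (22 without it); RELA turned to 0.12 and NFKBIE to 0.021. With no filter on low counts RELA turned to 0.0031 (edgeR adjusted p = 0.995). The cause was not tested. No paired analysis was possible because the control columns carry no number that ties them to a sample. Among the members, REL has the fewest counts, 127 to 195 per library; TNFRSF1B, with 26 to 84, has fewer.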
